A study of Mus musculus with 6 samples.

Results

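The aminoacyl-tRNA synthetases are the enzymes that load amino acids onto tRNAs, and their transcripts were followed here in mouse macrophages exposed to extracellular ADP. The 33 genes were taken by name, as the probes of the array that carry the symbol of one of 20 cytosolic enzymes or of 13 mitochondrial enzymes whose names end in 2, out of 36095 genes on the array. They had 41 probes. A probe was used if every array of the ADP group or every array of the control group read it well above background, which 38 did, and these gave a value for 32 genes. Nars2, the mitochondrial asparaginyl-tRNA synthetase gene, was the gene left without one. All 20 cytosolic genes were measured, and 12 of the 13 mitochondrial ones.

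The samples were bone marrow-derived macrophages of C57BL/6 mice, grown with L929-conditioned medium as the source of M-CSF, the growth factor that drives macrophage differentiation. The 3 ADP samples had received 100 µM ADP for 6 h, and the 3 control samples were labelled as control at the same time, without saying what they received. Per the submitters each replicate was an independent experiment with its own donor, and no genotype or age is given. Each sample was hybridised to its own single-colour array, and no array held over 51.9% or under 50.3% of spots well above background. All 8 macrophage markers were well above background on every array. Markers of other cells were also present, with 4 of 6 for neutrophils, 3 of 4 for fibroblasts, 2 of 4 for T cells, 2 of 3 for dendritic cells and 1 of 4 for mast cells, against 0 of 4 for B cells and 0 of 3 for erythroid cells. In the main fit no marker passed the test after adjustment (limma, smallest adjusted p = 0.260). At an unadjusted p under 0.05, the macrophage marker Cd14 (0.79, log2 difference, ADP minus control), the neutrophil marker S100a8 (0.32) and Ccr7 of dendritic cells (1.005) were higher with ADP, and the macrophage marker Mertk (-0.61) and Kit of mast cells (-0.72) were lower. In the limma fit with the array slide as a block and trended, robust variances, some markers had an adjusted p under 0.05. These were Cd14 (0.021), Mertk (0.023), Ccr7 (0.037) and Kit (0.045), where 9.91% of all features were called. The log2 of the summed signal of the 4 measured neutrophil markers was 4.68 to 4.97 on ADP arrays, against 4.48 to 4.59 on control arrays. Most of that sum was S100a8, which alone read 4.53 to 4.82 on ADP arrays, against 4.29 to 4.45 on control arrays. S100a9, Elane and Mpo differed by 0.20, 0.18 and 0.47, at unadjusted p of 0.560, 0.375 and 0.111 (limma). S100a9 turned sign between slides. For the 2 dendritic cell markers the log2 sum was -1.46 to -1.27 on ADP arrays, against -2.72 to -1.58 on control arrays, and for the 4 fibroblast markers 3.37 to 3.61 on ADP arrays, against 3.37 to 3.57 on control arrays. Most of the dendritic cell sum was Ccr7, and the other marker, Flt3, differed by -0.15. The part of these markers in the values below was not tested.

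Each synthetase recognises one amino acid and the tRNAs that carry it, and links them with energy from ATP. Most amino acids are served by a cytosolic enzyme and, from a separate nuclear gene, by a mitochondrial enzyme that charges the tRNAs encoded in mitochondrial DNA. In the cytosol several enzymes sit together in the multisynthetase complex, held by the scaffold proteins AIMP1, AIMP2 and EEF1E1 (AIMP3), while others work free or in pairs. Many cytosolic synthetase genes are known targets of ATF4, the transcription factor of the integrated stress response, which is translated when uncharged tRNAs or other stresses lead to phosphorylation of eIF2. Wars, the tryptophanyl enzyme, is also known as an interferon-inducible gene of macrophages.

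The arrays lay on 2 slides. Slide 1 held ADP 1 and controls 1 and 2, and slide 2 held ADP 2, ADP 3 and control 3, so each slide carried both groups and the difference could also be read within each. A level is the log2 signal minus the log2 of the array's 75th percentile, a difference is ADP minus control on that log2 scale, and the level of one probe cannot be set against that of another. A smaller number of cells carrying a transcript and less of it per cell cannot be told apart in such samples.

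No synthetase transcript passed the test. In limma, fitted over 19575 features, the smallest Benjamini-Hochberg adjusted p among the 32 genes was 0.353, for Mars2, and the count under 0.05 was 0, with 0% of all features called. At an unadjusted p under 0.05 there were 3 genes, Vars, Mars2 and Ears2, all lower on the ADP arrays. That is 9.38% of the 32, against 12.7% of all features in either direction and 6.18% lower. No synthetase gene was higher at that level, against 6.55% of all features. By compartment, 1 of 20 cytosolic genes (5%) and 2 of 12 mitochondrial genes (16.7%) were lower.

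The differences were small in both compartments. Over the 20 cytosolic genes they ran from -0.30 to 0.27 with a median of -0.01, and 8 were above 0 and 12 below. Over the 12 mitochondrial genes they ran from -0.56 to 0.25 with a median of -0.08, and 5 were above 0 and 7 below. The median of all features was 0.00. The median size of a difference, without its sign, was 0.12 for the synthetases and 0.16 for all features. The 95% interval of the difference lay within 1.5-fold in either direction for 25 of the 32 genes (78.1%), against 54.5% of all features, and within 2-fold for 30 genes (93.8%), against 84.8%. The exceptions to the 2-fold limit were Ears2, whose interval ran from -1.103 to -0.01, and Yars, whose interval ran from -1.16 to 1.69.

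**Figure D1:**
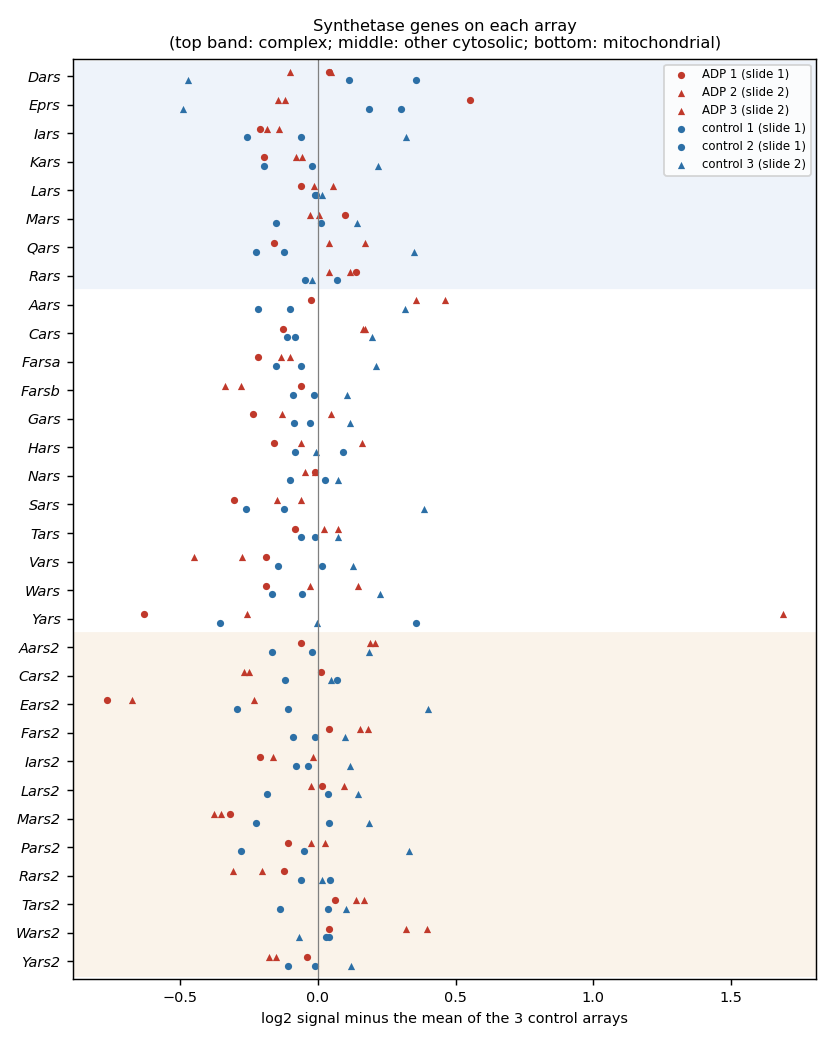
Log2 signal of each synthetase gene on each array, minus the mean of the 3 control arrays of that gene (x axis). ADP arrays are red and control arrays blue, circles are slide 1 and triangles slide 2, and the bands separate enzymes of the multisynthetase complex, other cytosolic enzymes and mitochondrial enzymes. Most points lie within 0.5 of 0 and the colours mix, while control 3 is the right-most control for 24 of the 32 genes and ADP 3 stands far to the right for Yars.

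The 8 enzymes of the multisynthetase complex had a median difference of 0.01 and a range of -0.18 to 0.10. Of these, 4 were above 0 and 4 below, 0 had an unadjusted p under 0.05, and the 95% interval lay within 1.5-fold for 7 of 8. The genes for the leucyl (Lars), aspartyl (Dars), glutaminyl (Qars) and methionyl (Mars) enzymes differed by -0.01, -0.00, 0.02 and 0.02. For Lars, with the narrowest interval of the 8, the 95% limits were -0.23 and 0.22.

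Iars, which charges isoleucine, had levels of 3.27, 3.34 and 3.30 on ADP arrays 1 to 3, against 3.42, 3.22 and 3.80 on control arrays 1 to 3. The ADP arrays were close to each other and lay between controls 2 and 1, while control 3 stood above all others. The difference was -0.18 ± 0.16 (SE, n = 3 arrays per group). Rars, the arginyl enzyme, had levels of 0.01, -0.01 and -0.09 on ADP arrays, against -0.06, -0.18 and -0.15 on control arrays. ADP 3 lay below control 1, so the groups overlapped, and the difference was 0.10 ± 0.10.

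Eprs encodes the bifunctional enzyme that charges both glutamate and proline and that, phosphorylated after interferon-gamma, is known to restrain translation of inflammatory mRNAs. Its levels were 1.46, 0.79 and 0.76 on ADP arrays, against 1.21, 1.09 and 0.42 on control arrays. Within each slide every ADP array was above every control array, but the slides themselves differed by -0.71, with slide 2 lower. The difference was therefore 0.10 ± 0.28 (SE) without regard to slide (adjusted p = 0.912, limma) and 0.33 ± 0.08 with the slide as a block (unadjusted p = 0.006, adjusted p = 0.084). It was 0.31 within slide 1 and 0.36 within slide 2. In the slide-blocked fit with trended, robust variances the adjusted p was 0.043, one of 2 synthetase calls made in any setting.

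Kars, the lysyl enzyme, and Gars, the glycyl enzyme, each serve both cytosol and mitochondria from a single gene. Kars had levels of 4.01, 4.15 and 4.12 on ADP arrays, against 4.18, 4.01 and 4.42 on control arrays. Gars had levels of 5.54, 5.82 and 5.65 on ADP arrays, against 5.75, 5.69 and 5.89 on control arrays. In both genes the groups overlapped, and the differences were -0.11 ± 0.13 and -0.11 ± 0.12 (SE, n = 3 arrays per group). Leaving both out of the cytosolic set gave a median of -0.01 over the other 18 genes.

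Outside the complex, 12 cytosolic enzymes had a median of -0.02, with 4 genes above 0 and 8 below. Vars, the valyl enzyme, is known to associate with the elongation factor eEF1. It had the smallest p of the cytosolic genes, with levels of 0.78, 0.69 and 0.52 on ADP arrays, against 0.98, 0.82 and 1.097 on control arrays. All 3 ADP arrays lay below all 3 controls, with ADP 1 and control 2 close together. The difference was -0.30 ± 0.12 (SE), or 1.24-fold lower with ADP, at an unadjusted p of 0.047 and an adjusted p of 0.385 (limma). It was -0.31 with the slide as a block, -0.12 within slide 1 and -0.49 within slide 2. Vars was the only cytosolic gene whose groups did not overlap.

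Farsa and Farsb encode the 2 subunits of cytosolic phenylalanyl-tRNA synthetase. Farsa had levels of 2.79, 2.91 and 2.87 on ADP arrays, against 2.95, 2.86 and 3.22 on control arrays. Farsb had levels of 2.80, 2.58 and 2.53 on ADP arrays, against 2.85, 2.77 and 2.97 on control arrays. In each gene a control array lay inside the ADP range, and the differences were -0.15 ± 0.13 and -0.23 ± 0.12 (SE). With the slide as a block they were -0.22 and -0.21. The difference of Farsb was -0.01 within slide 1 and -0.41 within slide 2, so the slides differed in size for this gene.

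Aars, the alanyl enzyme, was one of the 2 cytosolic genes furthest above 0. Its levels were 4.04, 4.42 and 4.52 on ADP arrays, against 3.96, 3.85 and 4.38 on control arrays. Slide 2 was higher than slide 1 by 0.46, and 2 of the 3 ADP arrays were on slide 2. The difference was 0.26 ± 0.19 (SE) without the block and 0.11 ± 0.08 with it, and it was 0.13 and 0.09 within slides 1 and 2.

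Sars, the seryl enzyme, had levels of 4.31, 4.46 and 4.55 on ADP arrays, against 4.49, 4.35 and 4.995 on control arrays. Control 3 was the highest of the 6, and the other arrays overlapped. The difference was -0.17 ± 0.19 (SE), and -0.30 ± 0.11 with the slide as a block. Wars had levels of 4.03, 4.19 and 4.36 on ADP arrays, against 4.16, 4.05 and 4.44 on control arrays, with a difference of -0.02 ± 0.15. The difference of Wars was -0.08 within slide 1 and -0.17 within slide 2, and its sign turned in 4 of 19 other settings.

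Yars, the tyrosyl enzyme, had the largest SE of the 32 genes, on a dim probe still well above background on every array. Its levels ran from -3.77 to -1.45 on ADP arrays, against -3.49 to -2.78 on control arrays, and ADP 3 alone accounted for the upper end. The difference was 0.27 ± 0.59 (SE), and -0.63 and 0.72 within slides 1 and 2. The remaining enzymes outside the complex charge cysteine (Cars), histidine (Hars), asparagine (Nars) and threonine (Tars), and their differences ran from -0.02 to 0.07, each smaller than its own SE.

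**Figure D2:**
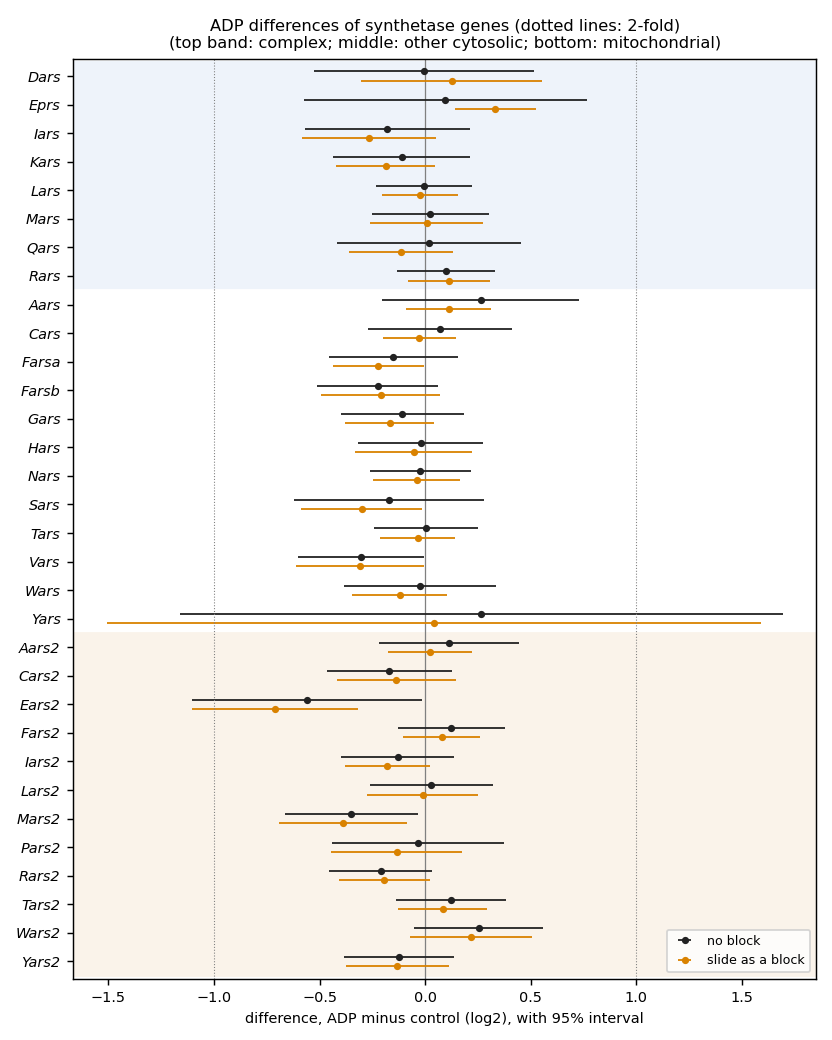
Difference between ADP and control arrays for each synthetase gene (x axis, log2) with its 95% interval, without a block (black) and with the slide as a block (orange). Bands are as in the plot of levels by array, and dotted lines mark 2-fold. The median SE is 0.13 without the block and 0.10 with it, and with it the intervals of Eprs, above 0, and of Farsa, Sars, Vars, Ears2 and Mars2, below 0, do not reach 0. Those of Vars, Ears2 and Mars2 do not reach it without the block either.

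Among the mitochondrial enzymes the 3 lowest differences belonged to Ears2, Mars2 and Rars2. The probes that read these genes are printed here because they carry the lowest mitochondrial differences, written 5′ to 3′ as deposited with the arrays. Capitals mark the longest run that each probe shared with the probe of the enzyme for the same amino acid in the other compartment, which was Eprs, Mars and Rars in turn.
Ears2: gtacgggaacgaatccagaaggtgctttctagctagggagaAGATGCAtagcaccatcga
Mars2: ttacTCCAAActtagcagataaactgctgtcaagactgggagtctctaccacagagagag
Rars2: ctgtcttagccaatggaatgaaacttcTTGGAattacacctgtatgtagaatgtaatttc
On mouse build mm9 these lie at chr7:129182565-129182624 on the minus strand, and at chr1:55295642-55295701 and chr4:34607264-34607323 on the plus strand. The shared runs were of 7, 6 and 5 bases out of 60. Over the 13 pairs of enzymes compared below they were of 5 to 7 bases.

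Ears2, which charges mitochondrial glutamate tRNA, had levels of -2.10, -1.57 and -2.01 on ADP arrays, against -1.44, -1.63 and -0.93 on control arrays. ADP 2 lay above control 2, so the groups overlapped, but within each slide the ADP arrays were lower. The difference was -0.56 ± 0.23 (SE), or 1.47-fold lower with ADP, the lowest of all 32 genes, at an unadjusted p of 0.046 and an adjusted p of 0.382 (limma). With the slide as a block it was -0.71 ± 0.16 (unadjusted p = 0.005, adjusted p = 0.080), and it was -0.57 within slide 1 and -0.85 within slide 2. With trended, robust variances beside the block the adjusted p was 0.033. Leaving out 1 array gave -0.72 to -0.36, the last without control 3, and with normexp background correction it was -0.41.

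Mars2, the mitochondrial methionyl enzyme, had levels of -2.87, -2.90 and -2.93 on ADP arrays, against -2.51, -2.78 and -2.36 on control arrays. The ADP arrays lay close to each other and below all controls. The difference was -0.35 ± 0.13 (SE), or 1.27-fold lower with ADP, at an unadjusted p of 0.035. It was -0.22 within slide 1 and -0.55 within slide 2. With normexp background correction it was -0.18. The probe of Mars2 was dim, though well above background on every array.

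Rars2, the mitochondrial arginyl enzyme, had levels of 2.24, 2.16 and 2.06 on ADP arrays, against 2.41, 2.30 and 2.38 on control arrays, with the groups apart. The difference was -0.21 ± 0.10 (SE, unadjusted p = 0.081), and -0.12 and -0.27 within slides 1 and 2. Wars2, the mitochondrial tryptophanyl enzyme, was the synthetase gene whose groups were apart in the other direction. Its levels were -1.08, -0.80 and -0.73 on ADP arrays, against -1.09, -1.09 and -1.20 on control arrays, with ADP 1 and control 1 almost equal. The difference was 0.25 ± 0.13 (unadjusted p = 0.089), and it was 0.01 within slide 1 and 0.43 within slide 2.

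In all, the groups did not overlap for 3 genes lower with ADP (Vars, Mars2 and Rars2) and 1 higher (Wars2). That is 12.5% of the 32 genes, against 19.4% of all features, of which 9.67% were higher and 9.72% lower. The other 8 mitochondrial genes had differences from -0.17 for Cars2 to 0.12 for Fars2, the phenylalanyl enzyme, and Tars2, the threonyl enzyme. Nars2 had levels of -4.73, -6.98 and -6.82 on ADP arrays, against -6.39, -6.01 and -6.95 on control arrays, and was not well above background on any of them, so no fold is given.

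Where 2 probes of one gene could both be read, they did not always point the same way. This was possible for 6 genes. The second probes of Iars2 and Tars2 gave -0.10 and 0.08, beside -0.13 and 0.12 for the probes used. Those of Cars2 and Farsa were lower, at -0.30 and -0.30, with unadjusted p of 0.047 and 0.042 when every probe was fitted on its own, beside -0.17 and -0.15. The second probes of Wars and Wars2 had the opposite sign, at 0.13 ± 0.11 and -0.05 ± 0.37 (SE), beside -0.02 and 0.25. Second probes of Aars and Pars2 were too dim to pass the filter.

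The contrast between cytosolic and mitochondrial enzymes was taken amino acid by amino acid, as the difference of the cytosolic gene minus that of its mitochondrial counterpart, in 13 pairs. In 7 pairs this was above 0, the cytosolic gene standing higher relative to its counterpart with ADP, and in 6 it was below, with a median of 0.13. Eprs, which charges both glutamate and proline, was the cytosolic gene of the pairs with Ears2 and Pars2, both above 0. Fars2 was likewise shared, so the 13 pairs were not all separate contrasts. Methionine gave 0.37 ± 0.05 (SE, n = 3 arrays per group), with 0.39 and 0.40 within slides 1 and 2. With normexp background correction the contrast was smaller, Mars differing by 0.00 and Mars2 by -0.18. Arginine gave 0.31 ± 0.03, with 0.24 and 0.37. For both, the difference between the 2 log2 signals on ADP arrays lay above that on every control array, the ranges being 4.25 to 4.34 against 3.88 to 4.001 for methionine, and -2.23 to -2.15 against -2.53 to -2.47 for arginine.

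Phenylalanine and tryptophan went the other way. Farsa against Fars2 gave -0.28 ± 0.08 (SE) and Farsb against Fars2 gave -0.35 ± 0.13, and these share Fars2. Wars against Wars2 gave -0.28 ± 0.15. Within slides 1 and 2 Farsa against Fars2 gave -0.20 and -0.40, Farsb against Fars2 -0.10 and -0.48, and Wars against Wars2 -0.08 and -0.60. The second probes of Wars and Wars2, at 0.13 and -0.05, had signs opposite to the probes used in this contrast. In the 5 pairs of methionine, arginine, phenylalanine and tryptophan the groups did not overlap. This gave the smallest two-sided p that an exact permutation test of 3 against 3 arrays allows, 0.1, and a Benjamini-Hochberg adjusted p of 0.26 over the 13 pairs. Among single features 19.4% had groups that did not overlap, and the share among differences between 2 genes was not computed. The glutamate pair, Eprs against Ears2, had the largest value, 0.65 ± 0.57 (exact permutation p = 0.4, adjusted p = 0.58), and gave 0.87 and 1.21 within slides 1 and 2. The sign was the same in both slides for 9 pairs, 5 above 0 and 4 below, the 5 including both pairs with Eprs. Over the 2 compartments as wholes, the cytosolic median minus the mitochondrial median was 0.07. It was -0.08 within slide 1, 0.11 within slide 2 and -0.01 without control 3.

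**Figure D3:**
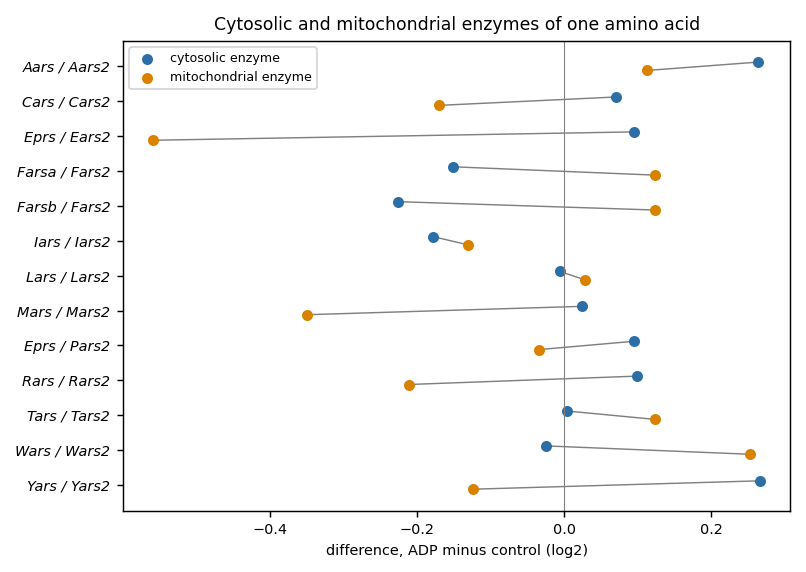
Difference between ADP and control arrays (x axis, log2) of the cytosolic (blue) and mitochondrial (orange) enzyme gene for each of 13 pairs, joined by a line. The blue point is to the right in 7 pairs and to the left in 6.

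The shift between slides was larger in size than the ADP difference for 20 of the 32 genes (62.5%), against 59.1% of all features. Its median was 0.12 for the synthetases, with slide 2 higher for 26 of 32, against 0.05 for all features. Control 3 was the highest control for 24 of the 32 genes (75%), where it was the highest for 50.9% of all features. Control 2 was the lowest control for 24 of the 32 genes, against 7958 of all 19575 features. Seen per array, the median synthetase deviation from the control mean was -0.10, -0.03 and -0.04 on ADP arrays 1 to 3, against -0.02, -0.11 and 0.12 on control arrays 1 to 3, so the controls spanned a wider range than the ADP arrays.

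With the slide as a block, the medians were -0.05 for cytosolic and -0.13 for mitochondrial genes, against -0.01 for all features. The 95% interval then lay within 1.5-fold for 27 of the 32 genes, against 68.9% of all features, and within 2-fold for 30, against 90.5%. Of the 32 genes, 1 was higher (Eprs) and 5 were lower (Farsa, Sars, Vars, Ears2 and Mars2) at an unadjusted p under 0.05, and the smallest adjusted p was 0.080. These were 18.8% of the 32 genes, against 24.3% of all features, of which 10.8% were higher and 13.6% lower. In the slide-blocked fit with trended, robust variances Eprs was higher and Ears2 lower at an adjusted p under 0.05, which is 6.25% of the genes, against 9.91% of all features (4.52% higher and 5.38% lower).

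Reading each slide alone, 14 of the 32 genes were lower with ADP in both slides, 7 were higher in both and 11 turned sign. Over all features these shares were 32.4%, 29.7% and 38%. The cytosolic median was -0.05 within slide 1 and -0.13 within slide 2, and the mitochondrial median was 0.03 and -0.24. Slide 2 rested on a single control array, control 3, and slide 1 on a single ADP array, ADP 1.

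**Figure D4:**
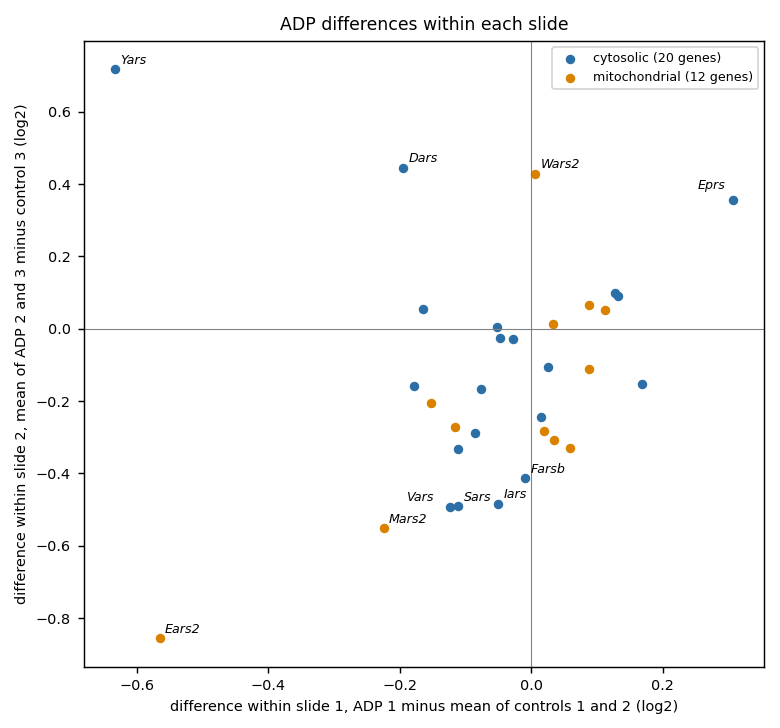
ADP difference of each synthetase gene within slide 1 (x axis, log2) and within slide 2 (y axis, log2), cytosolic genes in blue and mitochondrial genes in orange. Ears2 and Mars2 lie lower left and Eprs upper right, so their sign is the same in both slides, while Yars and Dars differ in sign between slides.

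The genes around the synthetases were read as lists. The 3 scaffold genes of the multisynthetase complex all lay below 0, with 0 at an unadjusted p under 0.05. Eef1e1 differed by -0.20 ± 0.11, Aimp1 by -0.13 ± 0.15 and Aimp2 by -0.11 ± 0.16 (SE). With the slide as a block they were -0.22, -0.19 and -0.23. The median of the 3 was -0.13, and it was -0.02 without control 3 and -0.23 without control 2.

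A list of 8 other genes of mitochondrial tRNA charging held the aspartyl, histidyl, seryl and valyl synthetases that the naming rule had not taken in, the subunits of the glutamyl-tRNA amidotransferase, which converts glutamate to glutamine on mitochondrial tRNA, and the enzyme that formylates the initiator methionine. Its median was -0.18, with 5 genes below 0 and 3 above. At an unadjusted p under 0.05, 3 of the 8 were lower (37.5%, against 6.18% of all features) and 0 higher. Gatc, an amidotransferase subunit, had levels of -0.62, -0.72 and -0.93 on ADP arrays, against -0.27, -0.43 and -0.28 on control arrays. Sars2, the mitochondrial seryl enzyme, had levels of 0.28, 0.13 and 0.10 on ADP arrays, against 0.52, 0.40 and 0.47 on control arrays. The groups did not overlap in either, and the differences were -0.43 ± 0.12 and -0.30 ± 0.10 (SE), with adjusted p of 0.282 and 0.326 (limma). Vars2 and Gatb, picked out after their values were seen, also had no overlap and differed by -0.32 and -0.35. With the 4 synthetases of this list added, 16 mitochondrial synthetases had a median of -0.10, 10 of them below 0.

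Genes of the amino acid and integrated stress response had a median of 0.10 over 27 measured of 30, with 17 above 0 and 10 below. At an unadjusted p under 0.05, 5 were higher (18.5%, against 6.55% of all features) and 0 lower. Slc7a11, the cystine transporter, had levels of 2.59, 2.15 and 2.61 on ADP arrays, against 1.25, 1.86 and 0.36 on control arrays. Nupr1, a stress-induced nuclear protein gene, had levels of 4.33, 4.37 and 4.71 on ADP arrays, against 3.89, 3.92 and 4.07 on control arrays. The groups were apart in both, with differences of 1.29 ± 0.37 and 0.51 ± 0.14 (SE) and adjusted p of 0.284 and 0.273. Slc7a3 (0.77), Slc3a2 (0.30) and Ppp1r15a (0.27), named after their values were seen, were the others at that level. Of the 7 amino acid transporter genes on the list, grouped after their values were seen, 5 were above 0 and 2 below, from -0.24 for Slc1a5 to 1.29 for Slc7a11.

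Atf4, Ddit3 and Asns gave smaller values than Slc7a11 and Nupr1. Atf4 had levels of 7.37, 7.38 and 7.41 on ADP arrays, against 7.33, 7.35 and 7.16 on control arrays, and differed by 0.10 ± 0.10 (SE). Ddit3, which encodes CHOP, differed by 0.14 ± 0.11, and Asns, asparagine synthetase, by 0.33 ± 0.18, 0.19 with the slide as a block. Sesn2, Chac1 and Trib3 of the stress response list, picked after their values were seen, differed by 0.30, 0.21 and 0.20. With the slide as a block, 10 of the 27 measured genes of the list were higher at an unadjusted p under 0.05 and 2 were lower. That is 44.4%, against 24.3% of all features. Other biosynthetic genes, picked after their values were seen, lay on both sides of 0. Phgdh, Shmt2, Psph and Aldh18a1 were below, at -0.28, -0.19, -0.10 and -0.20, and Psat1 and Mthfd2 above, at 0.09 and 0.09.

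The remaining lists had medians near 0. The kinases and subunits of eIF2 and eIF2B had a median of 0.01 over 14 genes, with 0 at an unadjusted p under 0.05, and the 2 with the smallest p were Eif2ak2, the interferon-inducible kinase PKR, at -0.16 ± 0.11 and Impact, an inhibitor of the kinase GCN2, at 0.16 ± 0.14 (SE). Genes of tRNA processing and export had a median of -0.04 over 19 genes, with 9 above 0 and 10 below. At an unadjusted p under 0.05, 2 of them were lower (10.5%, against 6.18% of all features) and 0 higher. The lower ones included Rpp40, a ribonuclease P subunit on a dim probe, at -0.62 ± 0.24. The difference of Rpp40 was -0.10 within slide 1, -1.12 within slide 2 and -0.33 with normexp background correction. Cytosolic elongation and termination factors had a median of 0.00 over 10 genes. They were led by Eef2k, the kinase that inhibits elongation factor 2, at -0.64 ± 0.28 and Eef1d at -0.13 ± 0.09. Eef2k was also read by a dim probe, and its difference was 0.01 within slide 1 and -1.13 within slide 2. With normexp background correction the difference of Eef2k was -0.31. Mitochondrial translation factors had a median of -0.02 over 10 genes, led by Mtrf1l, a release factor, at -0.27 ± 0.12 and Gfm1, an elongation factor, at -0.12 ± 0.12. Neither list had a gene at an unadjusted p under 0.05.

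Interferon-gamma inducible genes were read because Wars is one of them. Over 8 measured of 10 the median was -0.26, with 7 below 0. At an unadjusted p under 0.05, 1 was lower (12.5%, against 6.18% of all features), and the groups did not overlap for 3, all lower (37.5%, against 9.72%). The median was -0.15 without control 3. Irf1, a transcription factor of the interferon response, differed by -0.42 ± 0.16 and Tap1, the peptide transporter of antigen presentation, by -0.41 ± 0.18 (SE). Wars differed by -0.02, and its difference from this list was not tested.

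**Figure D5:**
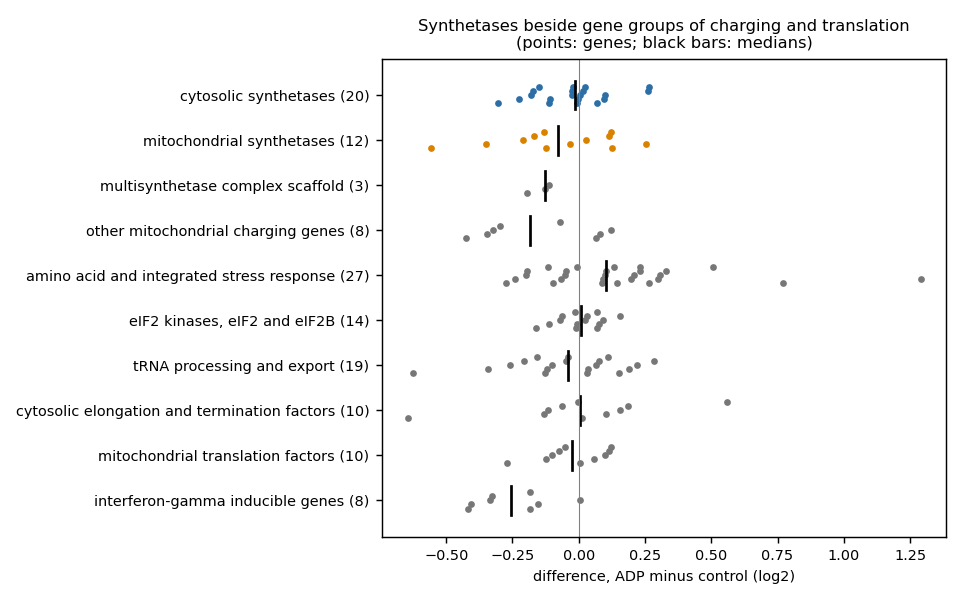
Difference between ADP and control arrays (x axis, log2) of each measured gene, by list, with medians as black bars and the number of genes measured in brackets. The medians of the synthetases are -0.01 and -0.08, those of the stress response genes 0.10 and of the interferon-gamma inducible genes -0.26.

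The promoters of the synthetase genes were searched for TGATGNAA on either strand, the core of the C/EBP-ATF response element that ATF4 is known to bind. The windows, from RefSeq on build GRCm38.p6, reach from 250 bases before to 50 after the start of each gene, and 25 of the 33 genes had one. A match was found for 5 of the 25 (20%), Aars, Gars, Iars, Tars and Yars, against 4.51% of 27025 genes and 8 of 25 genes of the stress response list (32%). Stretches of 60 bases before the start are printed for the 3 synthetases with a match there and for 3 stress response genes, 5′ to 3′ on the strand of the gene, with the matches in capitals.
Aars: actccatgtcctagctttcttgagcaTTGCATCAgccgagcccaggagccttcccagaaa
Gars: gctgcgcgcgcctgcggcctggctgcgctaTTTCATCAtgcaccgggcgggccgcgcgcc
Tars: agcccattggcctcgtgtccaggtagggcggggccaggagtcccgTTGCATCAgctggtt
Asns: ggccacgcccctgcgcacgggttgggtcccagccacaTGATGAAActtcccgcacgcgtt
Chac1: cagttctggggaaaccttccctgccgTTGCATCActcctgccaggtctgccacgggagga
Slc7a11: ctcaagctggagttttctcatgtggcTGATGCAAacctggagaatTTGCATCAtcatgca
They lie at chr8:111033704-111033763, chr6:55037941-55038000, chr15:11399659-11399718, chr6:7693210-7693269, chr2:119351023-119351082 and chr3:50443646-50443705, those of Tars, Asns and Slc7a11 on the minus strand and the others on the plus strand.

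The match shown began 112 bases before the start of Aars, 30 before that of Gars and 15 before that of Tars. Aars held a second match, 10 bases after its start, and Slc7a11 held 2, beginning 66 and 47 bases before its start. The 5 synthetase genes with a match had differences from -0.18 to 0.27 with a median of 0.00, and the 19 measured genes with a window and no match had differences from -0.56 to 0.25 with a median of -0.11. All 5 genes with a match were cytosolic, and their upper end was Yars, at 0.27 ± 0.59 (SE). The genes without a match included mitochondrial ones, with Ears2 and Wars2 at the ends of the range. The part of the compartment in these medians was not tested. The 7 measured stress response genes with a match had differences from -0.05 to 1.29 with a median of 0.21. A match describes these letters alone.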

How the data were processed

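RNA of 3 ADP and 3 control macrophage samples was measured on single-colour arrays, with groups taken from the sample titles. Spot intensities were deposited as read by Agilent Feature Extraction 10.7.1.1, per the submitters' processing notes, with spatial trend and background already subtracted within the array, per the file headers. The deposited value table of intensities held the same signal, within 0.001 log2 for 100% of 55681 probes, unscaled between arrays.

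Here each log2 signal had the log2 of its array's 75th percentile over non-control spots subtracted. Spots flagged as outliers were dropped unless all spots of a probe were, and spots of a probe were averaged. A probe was kept when well above background on all 3 arrays of a group (26587 probes), and of several probes of a gene the one with the highest mean stood for it. Other probes were named through their accession with a RefSeq table (GRCm38.p6), and synthetases by the name in the file. Groups were compared with limma 3.58.1 in R 4.3.3, two-sided, over 19575 features, with Benjamini-Hochberg adjustment at 0.05. A list is described by its counts and median, with no test. The limma fit was tested on simulated data.

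The members, lists and alternatives were chosen with earlier results of these data known. Values in every sample are given for the 8 cytosolic and 4 mitochondrial genes with the smallest p, for any gene dim in a whole group and for Wars, Eprs, Gars and Kars, and up to 2 genes are named per list (1 item is not reported here), with Atf4, Ddit3, Asns and the scaffold genes always. Samples were not paired by replicate number in the main fit. Deviations of same-numbered arrays correlated at 0.42, -0.40 and 0.43, the negative value for the 2 arrays that lay on different slides. Differently numbered arrays of one slide correlated at 0.45 (ADP 1 with control 2) and 0.47 (ADP 2 with control 3). Every pair on different slides was negative, from -0.60 (ADP 1 with control 3) to -0.27 (ADP 3 with control 2). The sign followed the slide, whether or not the numbers matched. These values do not show whether same-numbered samples belong together.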

Additional observations from a re-analysis of the deposited data

How the results depend on the processing

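Of the 32 genes, 16 kept the sign of their difference in all 19 other settings, 8 cytosolic and 8 mitochondrial. These settings were not all separate checks. Trended, robust variances and the replicate block leave a difference as it is in the main fit. Adding trended, robust variances to the slide block likewise leaves the slide-blocked difference unchanged. The count of synthetases at an adjusted p under 0.05 was 0 except in the slide-blocked fit with trended, robust variances, where it was 2 (Eprs and Ears2). At an unadjusted p under 0.05, 1 cytosolic gene was lower, against 0 with median scaling, in the unscaled value table, without a filter on dim probes and with the replicate block, 2 with every probe on its own, 3 with the slide block, 6 with the slide block and trended, robust variances, and 0 to 2 with 1 array left out. The count of higher cytosolic genes was 0, against 1 in both slide-blocked fits. The count of lower mitochondrial genes was 2, against 1 with normexp correction, quantile normalization, no filter, trended, robust variances and the replicate block, 0 with median scaling and in the value table, 3 with every probe on its own and with the slide block and trended, robust variances, and 0 to 2 with 1 array left out. That of higher ones was 0, against 0 to 1, the 1 (Wars2) without ADP 1. Vars kept an unadjusted p under 0.05 without ADP 1 or control 2, Ears2 without ADP 2 or control 2 and Mars2 without control 2 alone. Over all features the count was 2492, against 1554 in the value table, 4759 and 5111 in the slide-blocked fits, 2494 with the replicate block and 1163 to 2982 with 1 array left out.

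The cytosolic median was -0.129 within slide 2. The mitochondrial median was -0.0015 in the value table, -0.161 to 0.0187 with 1 array left out (the last without control 3), and 0.0261 and -0.238 within slides 1 and 2. The cytosolic minus the mitochondrial median was -0.0774 and 0.109 within slides 1 and 2, and -0.0110 to 0.0921 with 1 array left out. Among the lists, the value table gave -0.106 for other mitochondrial charging genes, 0.180 for the stress response, 0.0385 for tRNA processing, 0.0815 for elongation factors and 0.0533 for mitochondrial translation factors. That table moves the median of all features to 0.0818. Within slide 2 the medians were -0.0744 for eIF2 and eIF2B, -0.0925 for elongation factors, -0.0863 for mitochondrial translation factors and -0.481 for interferon-gamma inducible genes. Other mitochondrial charging genes gave -0.102 with the mean of a gene's probes, -0.298 with every probe and -0.105 within slide 1, elongation factors -0.0632 with quantile normalization, and tRNA processing -0.106 (without control 2) to 0.0436 (without control 3) with 1 array left out. Likewise the medians ran from -0.225 (without control 2) to -0.0207 (without control 3) for the scaffold genes, from -0.357 (without ADP 2) to -0.153 (without control 3) for interferon-gamma inducible genes, and from -0.0270 (without control 2) to 0.0538 (without control 3) for eIF2 and eIF2B. The causes were not tested. With 3 arrays per group, and 1 ADP array on slide 1 and 1 control array on slide 2, the slide-blocked values rest on few arrays, and Yars had the widest interval.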
